A study of Mus musculus with 11 samples.

Results

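DNA methylation was examined at the genes of the HoxA, HoxB, HoxC and HoxD clusters, chosen as every row of the promoter and gene tables whose symbol is Hox, a cluster letter and a number. This gave 39 genes, with 37 of 24391 promoters and 38 of 25802 gene bodies. The 57 of 14841 CpG islands and 75 of 259716 tiles (windows of 5000 bp) that overlap these gene bodies by at least 1 bp were added. Hoxb3 and Hoxc4 had no promoter row in the tables used here.

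The measurements came from whole pancreata of 11 wild type C57BL/6N mice on postnatal day 0 (P0), read by reduced representation bisulfite sequencing (RRBS). RRBS cuts genomic DNA with restriction enzymes, here MspI and TaqI, and bisulfite then turns unmethylated but not methylated cytosine into a base read as thymine. In the amphetamine group were 5 offspring (3 females and 2 males) of dams injected with 10 mg/kg amphetamine on embryonic days 14.5, 15.5 and 16.5, and in the control group 6 offspring (3 females and 3 males) that the labels give as Saline. All 11 mice entered a second comparison, 6 females against 5 males with both treatments together. The deposited tables hold the mean, SD, lowest and highest value of each group, so these stand below for values per mouse, and in a whole organ a shift in the shares of its cell types cannot be told apart from a change within cells. Nothing in the labels ties the mice to litters, so that p-values measure the spread between these mice, some of which may be littermates.

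Hox genes encode homeodomain transcription factors that give body segments their identity along the head-to-tail axis. Within each cluster they are numbered by paralogue group, and low numbers (anterior genes) are used nearer the head than high numbers (posterior genes). The clusters are dense in CpG islands, and in tissues where a cluster is silent it is typically covered by Polycomb proteins and not by DNA methylation.

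A region was tested when at least 3 mice of each group had reads and its mean coverage was at least 10 in both groups. Coverage was taken as reads summed over the region's CpG sites, averaged over mice, which no source states. By this, 36 Hox promoters, 38 gene bodies, 56 islands and 75 tiles were tested. The Hoxa3 promoter was left out, with mean coverage of 18.8 in amphetamine and 4.17 in control mice, and so was 1 island of 358 bp in Hoxc10. Median coverage of the tested Hox promoters was 436 in amphetamine and 362 in control mice, beside 258 and 208 over all tested promoters. As a view of the tissue, the promoters of the pancreatic regulators Ptf1a and Pdx1 were at 3.56% and 3.25% in control mice. Pancreatic marker promoters were not all low. The 6 tested acinar promoters had a control median of 52.0%, from 3.56% (Ptf1a) to 90.3%. For the 5 tested endocrine promoters it was 4.39%, from 1.90% to 90%. Levels of RNA were not measured here, and promoter methylation alone does not check the tissue label. Of the markers listed for pancreas and other tissues, promoters were tested for 6 of 11 acinar, 5 of 7 endocrine, 3 of 3 ductal, 4 of 4 mesenchymal, 1 of 6 blood and spleen and 0 of 3 liver genes, and none passed after adjustment between amphetamine and control mice or between the sexes. Without adjustment 1 of these promoters, of the endocrine gene Neurod1, passed between the treatments (13.1% against 5.07% in controls), where 4.44% of all promoters did. The part of Neurod1 in the results below was not tested.

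The sequences below are the Hox promoter of lowest methylation in control mice (Hoxd11), as the 300 bases upstream of the gene start, and part of the island in Hoxd3, 1 of 2 islands whose amphetamine and control values did not overlap. They are from the mouse genome GRCm38 (mm10), plus strand, and capitals mark MspI (CCGG) and TaqI (TCGA) sites, the places where RRBS fragments begin. Windows without annotated untranslated bases were taken.
Hoxd11 promoter, chr2:74679257-74679556: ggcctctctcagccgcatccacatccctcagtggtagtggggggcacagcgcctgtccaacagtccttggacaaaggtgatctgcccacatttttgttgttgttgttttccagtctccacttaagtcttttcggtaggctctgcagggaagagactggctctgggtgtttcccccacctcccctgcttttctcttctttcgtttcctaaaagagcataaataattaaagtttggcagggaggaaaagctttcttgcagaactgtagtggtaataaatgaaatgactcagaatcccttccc
Hoxd3 island, chr2:74732706-74732912: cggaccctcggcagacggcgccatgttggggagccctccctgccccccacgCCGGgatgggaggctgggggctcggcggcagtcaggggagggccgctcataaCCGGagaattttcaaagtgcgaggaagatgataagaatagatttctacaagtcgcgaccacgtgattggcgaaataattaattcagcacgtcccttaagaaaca
The Hoxd11 stretch holds 4 CpG sites and no cut site, and the Hoxd3 island part 16 CpG sites and 2 MspI sites. Both motifs read the same on either strand and cannot overlap each other. Over the full promoter windows of 2000 bp, CCGG was found in 97.3% of Hox and 99.9% of all promoters, and TCGA in 81.1% and 82.3%. Hoxd11 was the Hox promoter without CCGG, and its mean coverage was 14.4 in amphetamine and 21.8 in control mice. Its methylation value belongs to the full window of 2000 bp, whose 2 TaqI sites lie outside the 300 bases shown. The stretch printed is therefore not itself shown to be unmethylated.

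The Hox clusters stood low. In control mice the median over Hox gene bodies was 4.75%, against 51.2% over all tested gene bodies, and 32 of 38 lay under 10%, against 13.2% of all. Of the 75 Hox tiles, 56 were under 10%, with a median of 5.87% beside 83.3% for all tiles. Hox promoters had a median of 4.72% beside 6.50% for all promoters. Hox islands, at a median of 3.01%, were not lower than islands at large, at 2.09%. These levels are descriptions, since regions of 1 cluster are neighbours and partly overlap, and no test was made on them.

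The low level of Hox promoters went beyond their islands. Among the 27 tested Hox promoters that overlap a CpG island the median was 4.68%, above the 2.69% of all 13093 promoters with an island. The 9 Hox promoters without an island had a median of 11.1%, where the 9634 such promoters at large had 73.4%. That 11.1% is the Hoxb4 promoter, read in 3 control mice, and without 1 control mouse at 100% at Hoxb8 the median was 7.03%. In amphetamine mice the 9 had a median of 5.81%. Tiles showed the same order, with a median of 4.5% for the 54 Hox tiles that contain part of an island and 10.1% for the 21 that contain none, beside 6.70% and 84.4% for all tiles of either kind. For scale, 69 promoters of Fox, Sox and Tbx genes, other developmental regulators, had a median of 3.69%, but 11 of them exceeded 20%, as 1 Hox promoter did. The 75 gene bodies of those families had a median of 13.3%, with 34 above 20%, and none of the 38 Hox gene bodies reached 20%.

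**Figure D1:**
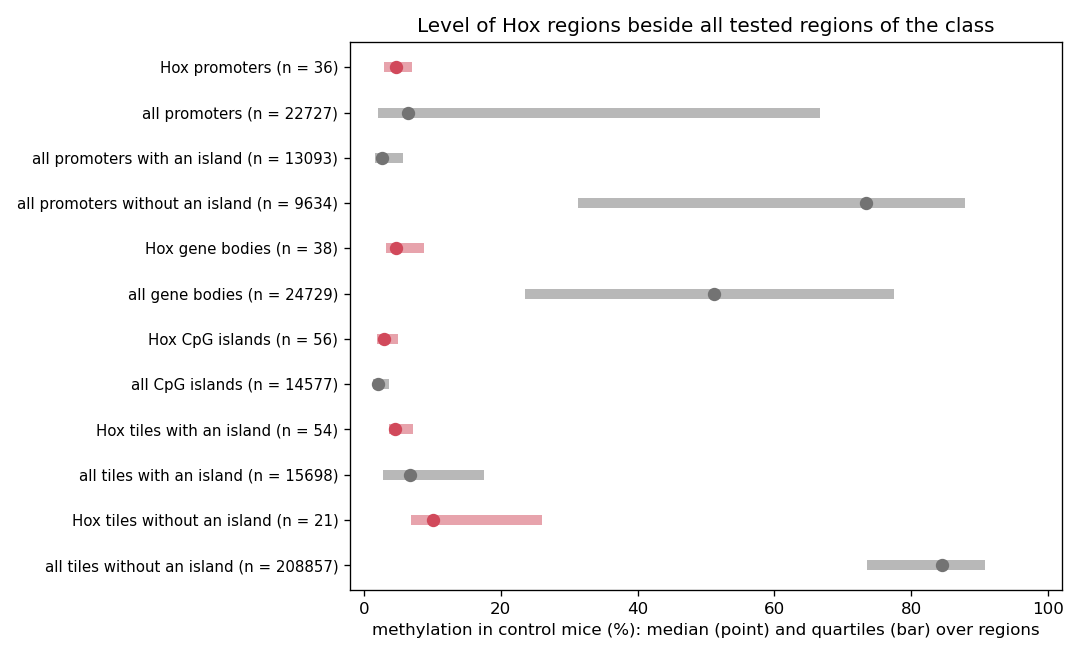
Methylation in control mice (x axis, percent) of Hox regions (red) and all tested regions (grey) of each class. Points are medians and bars the quartiles over regions. Hox gene bodies (median 4.75%) and Hox tiles without an island (10.1%) lie far to the left of all gene bodies (51.2%) and all such tiles (84.4%).

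Along the chromosome most flanking tiles stood higher than those of the genes. Within 100 kb on either side of the clusters, 90 tested tiles had a median of 64.8% in control mice, and 52 of them exceeded 50%, where 1 of 75 Hox tiles did. The flanks were uneven, with 23 of 90 tiles under 20%. On the high-coordinate side of HoxC 9 tiles had a median of 28.3% with 1 above 50%, and on that side of HoxA 7 of 15 were under 20%. The HoxA cluster, of 98.4 kb on chromosome 6, had 15 of 20 gene tiles under 20%, and the 5 above it overlapped the long Hoxa3 gene toward the anterior end, 1 of them with 81.2% of its bases outside genes. HoxB, of 174 kb on chromosome 11, was broken by the stretch between Hoxb13 and Hoxb9, where 13 tiles ran from 0% to 91.4% with a median of 32.2% and 5 above 50%. HoxC, of 116 kb on chromosome 15, was low throughout, with 19 of 19 gene tiles between 1.16% and 13.8%. HoxD, of 96.8 kb on chromosome 2, had 16 of 17 gene tiles under 20%, and of 2 tiles between Hoxd3 and Hoxd1 one was at 83.9%.

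**Figure D2:**
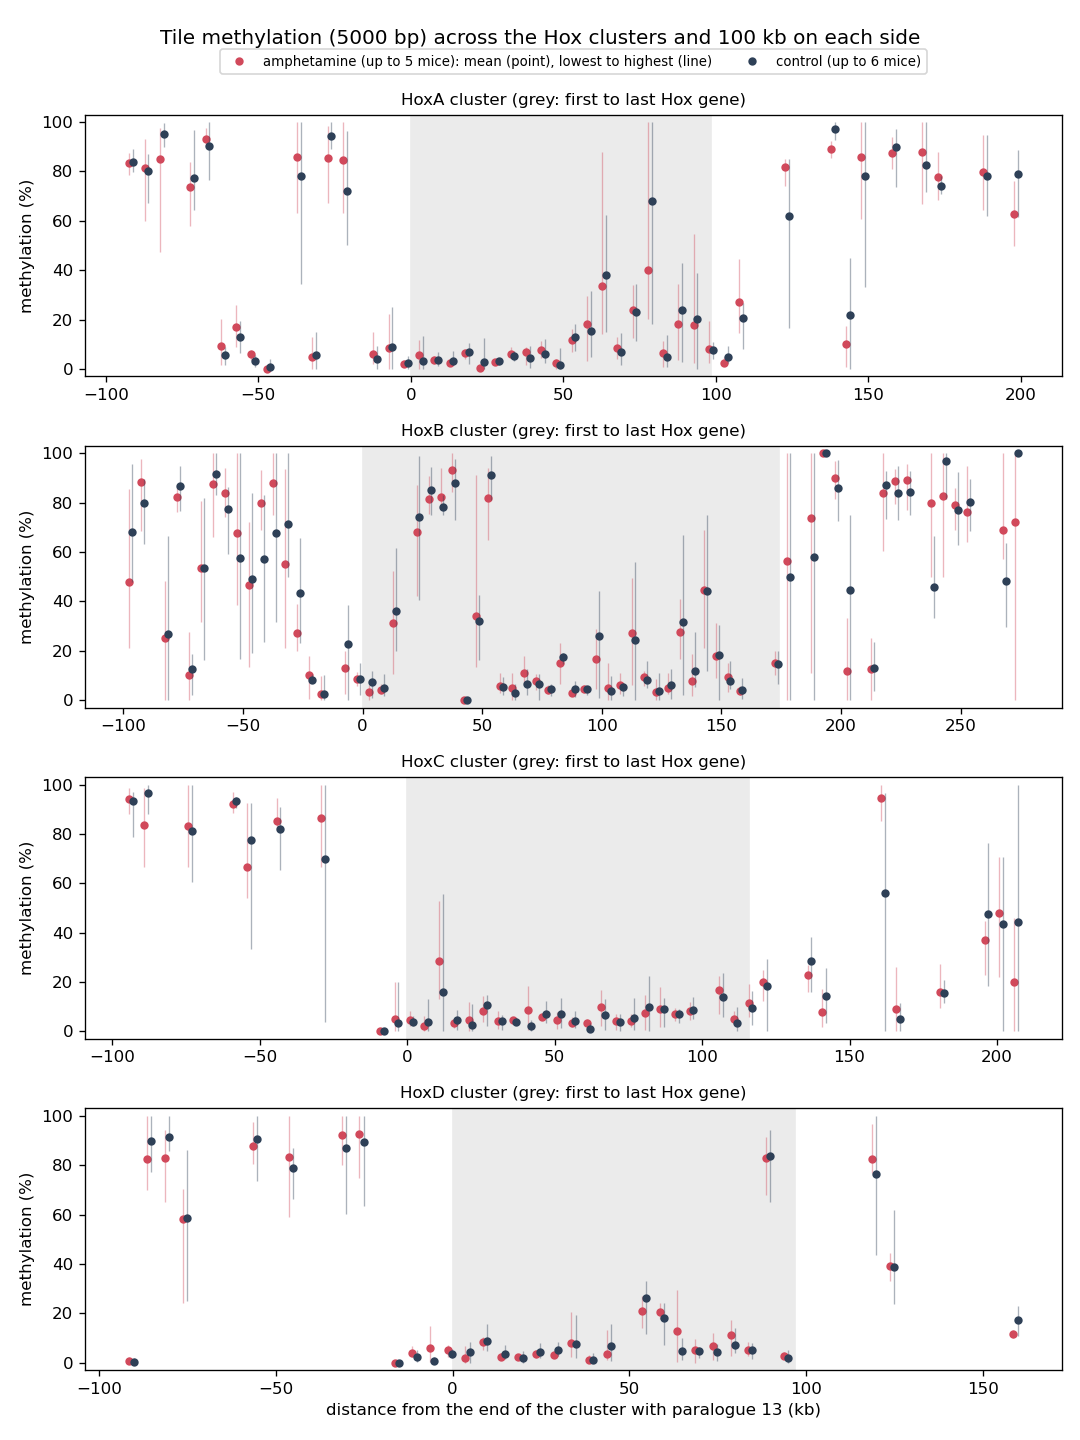
Methylation (y axis, percent) of 5000 bp tiles by distance in kb from the end of each cluster that holds paralogue 13. Points are group means, lines run from the lowest to the highest mouse, and the grey band runs from the first to the last Hox gene. Inside the bands 65 of 75 gene tiles are under 20% in control mice, and in the flanks 52 of 90 tiles exceed 50%.

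The tiles of highest control methylation in each cluster were mostly intron. In HoxA it was chr6:52180001-52185000 within Hoxa3, with a mean of 68.2% ± 32.1 (SD) in 5 control mice that ran from 18.2% to 100%. Its mean coverage was 27.0, the lowest of the Hox tiles, and the amphetamine mice ran from 20.4% to 100%. In HoxB the tile chr11:96335001-96340000, in an intron of Hoxb3, stood at 44.1% ± 21.2 (SD, n = 6), and amphetamine mice were at 44.7% ± 17.2 (SD, n = 5). In HoxD chr2:74720001-74725000, in introns of Hoxd3 and Hoxd4, was at 26.1% ± 7.58 (SD, n = 6). In HoxC the highest, chr15:103025001-103030000 in Hoxc4, reached 13.8% ± 7.54 (SD, n = 6). The HoxA, HoxB and HoxD tiles contain no CpG island, and the HoxC tile holds one.

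Among promoters, HoxB had the highest median of the clusters. The median over 9 HoxB promoters was 11.1% in control mice, against 4.30% for 10 in HoxA, 4.84% for 8 in HoxC and 4.53% for 9 in HoxD. The HoxB median is again the Hoxb4 promoter, and it was 7.03% without the 1 mouse at Hoxb8 and 7.33% in amphetamine mice. By paralogue group, promoters of anterior genes (1 to 3) had a median of 4.69%, central genes (4 to 8) 5.54% and posterior genes (9 to 13) 4.37%. Medians of gene bodies were more graded: 9.74% for anterior, 5.73% for central and 3.88% for posterior genes. Their values overlapped, from 1.71% to 15.5% over 7 anterior and from 1.99% to 9.16% over 16 posterior bodies. These groups share sequence. The Hoxa3 gene as annotated contains Hoxa4, Hoxa5 and Hoxa6, Hoxc5 contains Hoxc9, Hoxc8 and Hoxc6, and Hoxd3 contains Hoxd4. Hoxc5 also overlaps part of Hoxc10. Of promoter windows of 2000 bp, those of Hoxc5 and Hoxc10 share 1353 bp, and those of Hoxd3 and Hoxd4 share 1998 bp. The part of this sharing in the order was not tested.

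The extremes of each cluster were as follows. Hoxb6, a regulator of trunk patterning, had the highest promoter, at 30.3% ± 16.7 (SD) in control mice, from 1.22% to 50.1%. Amphetamine mice spanned 6.61% to 43.0% at this promoter, so that its spread between mice was wide in both groups. Other high promoters in HoxB were Hoxb1, needed for hindbrain segment identity, at 16.9% ± 11.1 (SD, n = 6) and Hoxb2 at 16.0% ± 12.9 (SD, n = 6). The lowest was Hoxb9 at 3.05% ± 2.13 (SD, n = 6). The Hoxb8 promoter had a control mean of 16.7% that came from 1 mouse at 100%, with the other control mice and all amphetamine mice at 0%.

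In HoxA the promoter of Hoxa6 was highest, at 12.1% ± 4.81 (SD, n = 6), and that of Hoxa7 lowest, at 1.58% ± 3.34 (SD, n = 6). The highest HoxC promoter was Hoxc12, at 11.4% ± 20.1 (SD, n = 6), where 1 control mouse reached 50% and amphetamine mice stayed at or under 5.60%. Hoxc8, expressed in the thoracic region of the embryo, was lowest at 1.94% ± 3.83 (SD, n = 6). HoxD promoters were all under 10%, from Hoxd11 at 0% in the 5 control mice with reads to Hoxd12, a limb patterning gene, at 6.30% ± 2.08 (SD, n = 6). At Hoxd11 the low coverage limits what that 0% can show.

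**Figure D3:**
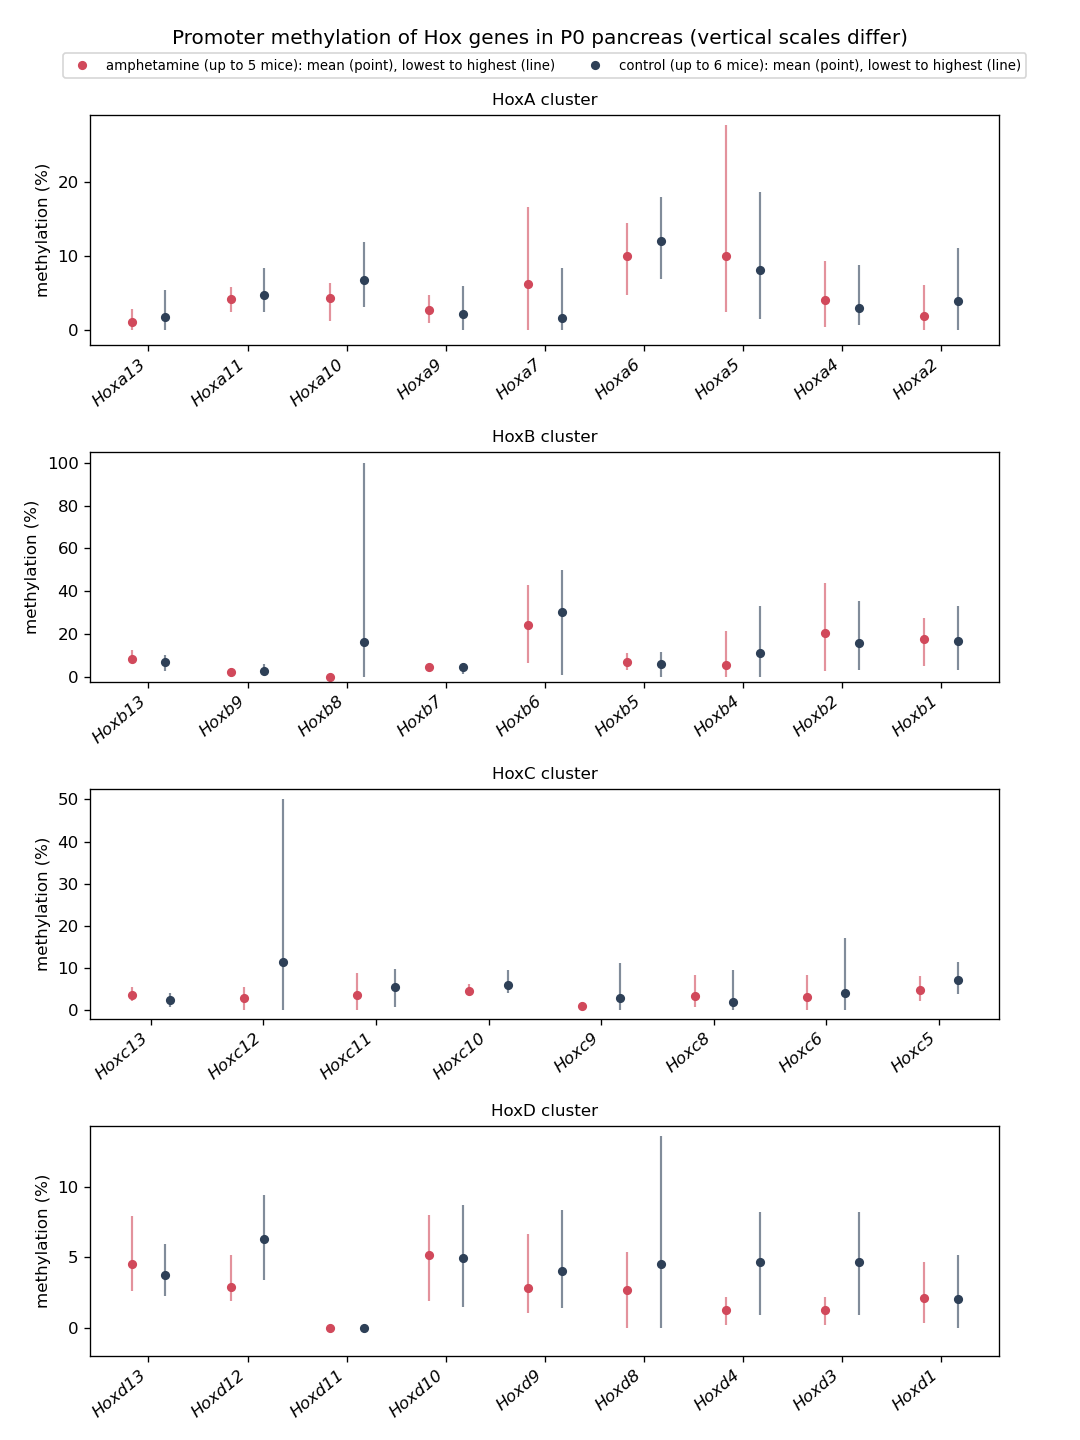
Promoter methylation (y axis, percent, with a different scale in each panel) of the tested promoters of Hox genes that also have a gene body row, from high (left) to low (right) paralogue number. Points are group means and lines run from the lowest to the highest mouse. The Hoxb6 promoter has the highest control mean (30.3%), the control line of Hoxb8 reaches 100%, and in every promoter shown the lines of the 2 groups overlap or are both at 0%.

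The gene bodies of highest control methylation were Hoxa6 (18.4% ± 8.47), Hoxb3 (15.5% ± 6.79), Hoxc6 (9.92% ± 2.68) and Hoxd4 (17.8% ± 3.49), each as mean and SD of 6 mice. The lowest were Hoxa10 (2.95% ± 1.14), Hoxb5 (2.77% ± 2.05), Hoxc9 (2.74% ± 1.54) and Hoxd8 (1.66% ± 2.67). Hoxd4 was steady between mice, from 12.8% to 21.3% in controls and from 15.8% to 18.6% after amphetamine. Its promoter was at 4.68% in the same control mice.

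**Figure D4:**
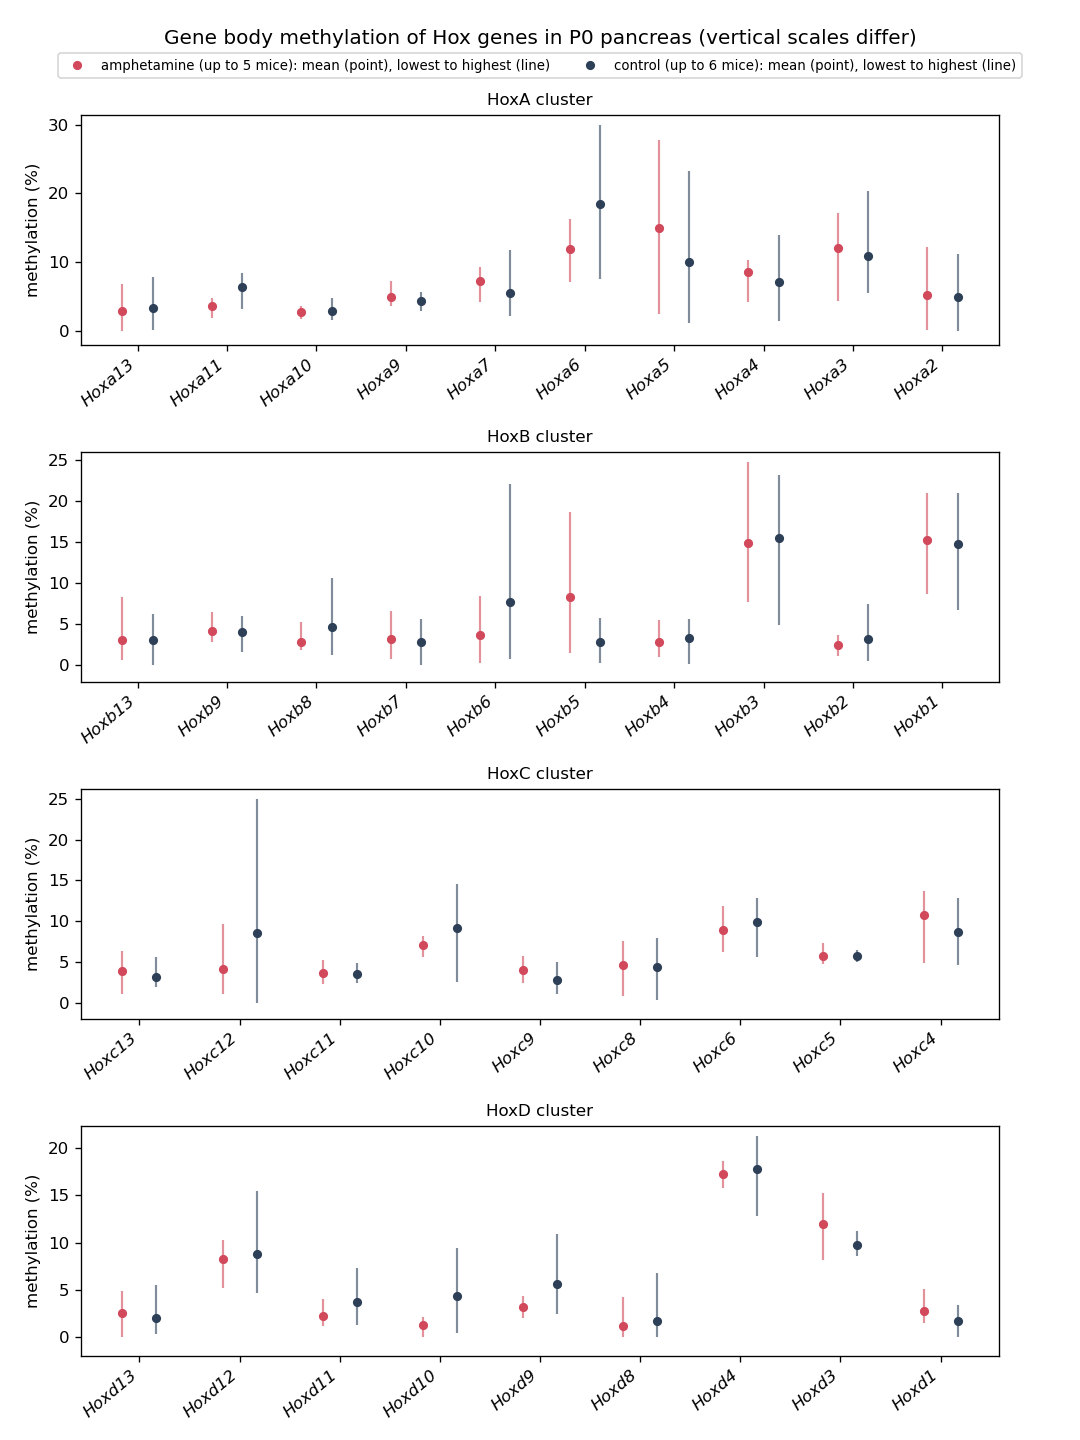
Gene body methylation (y axis, percent, with a different scale in each panel) of the 38 Hox genes from paralogue 13 (left) to 1 (right). Points are group means and lines run from the lowest to the highest mouse. Hoxa6 (18.4%) and Hoxd4 (17.8%) have the highest control means, and the group ranges overlap at every gene.

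The first comparison asked whether prenatal amphetamine was followed by a change in methylation at P0. No Hox region was called with limma at an adjusted p under 0.05: 0 of 36 promoters, 0 of 38 gene bodies, 0 of 56 islands and 0 of 75 tiles, where the share called over all tested regions of each class was also 0%. Without adjustment, 3 promoters passed 0.05, all lower in amphetamine mice (8.33% of members, beside 4.44% of all promoters), and 1 gene body, also lower (2.63%, beside 4.25%). Of the islands 2 passed, both higher (3.57%, beside 3.93%), and of the tiles 1, higher (1.33%, beside 4.31%). Ranges of the 2 groups did not overlap at 2 islands (3.57%, beside 0.466% of all islands), and overlapped at every Hox promoter, gene body and tile, where 0.427%, 0.311% and 0.416% of all regions were separated.

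By direction, 22 of 36 Hox promoters were lower in amphetamine than in control mice, 13 were higher and 1 was equal, with a median difference of -0.803 percentage points beside 0 over all promoters. Gene bodies divided into 20 higher and 18 lower with a median of 0.0578 points. Islands gave 26 higher and 29 lower with a median of -0.0770 points, and tiles 36 higher and 39 lower with a median of -0.278 points. Over all tested regions, 49.1% of promoters, 48.1% of gene bodies, 48.9% of islands and 48.7% of tiles were higher. For gauge, the median SD between mice within a group was 2.78 points for the Hox promoters, so the median differences are small beside it. The difference exceeded the SD between mice at 4 of 36 Hox promoters (11.1%), beside 12.2% of all promoters.

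The 3 promoters that passed without adjustment were all in HoxD and made up 2 windows, since those of Hoxd3 and Hoxd4 share 1998 of 2000 bp and hold the same values. There control mice ran from 0.870% to 8.24% with a mean of 4.68% ± 2.34 (SD, n = 6), and amphetamine mice from 0.172% to 2.16% with a mean of 1.28% ± 0.724 (SD, n = 5). The amphetamine mice lay in the lower part of the control range. The difference was -3.40 points (SE 1.08), with an adjusted p of 0.938 by limma. At Hoxd12 control mice ran from 3.37% to 9.40% and amphetamine mice from 1.87% to 5.18%, with a difference of -3.44 points (SE 1.12, adjusted p = 0.938). Neither window separated the groups. Without these, HoxD held 2 lower, 3 higher and 1 equal promoter.

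The largest lower values after amphetamine were at Hoxb8 (0% against 16.7%) and Hoxc12 (3.01% against 11.4%), where single control mice at 100% and 50% carry the means, and at Hoxb6 (24.3% against 30.3%). Higher values were largest at Hoxa7 (6.24% against 1.58%), Hoxb2 (20.6% against 16.0%) and Hoxa5 (10.1% against 8.10%), a gene needed for lung development. At each of these 6 the adjusted p was 0.938 or higher and the ranges overlapped.

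Among gene bodies the largest falls in mean were at Hoxa6 (-6.44 points, SE 3.82), Hoxc12 (-4.53, SE 4.64) and Hoxb6 (-4.04, SE 3.36), and the largest gains at Hoxb5 (5.52, SE 3.27), Hoxa5 (4.93, SE 5.05) and Hoxd3 (2.27, SE 1.19). All had an adjusted p of 0.987. The Hoxb5 body ran from 1.49% to 18.6% in amphetamine mice and from 0.298% to 5.76% in control mice. The one gene body past 0.05 without adjustment was Hoxa11, a regulator of kidney and forelimb development, at 3.65% ± 1.24 (SD, n = 5) after amphetamine and 6.41% ± 2.13 (SD, n = 6) in controls. Its ranges overlapped, from 1.92% to 4.70% and from 3.15% to 8.33%.

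The 2 separated islands were both higher after amphetamine. The island chr2:74732706-74733037, of 332 bp, lies in the Hoxd3 gene, with 37.7% of its bases in untranslated exon sequence and the rest in intron. Control mice ran from 0% to 0.741% there, with a mean of 0.174% ± 0.303 (SD, n = 6), and amphetamine mice from 2.25% to 28.9%, with a mean of 13.5% ± 10.1 (SD, n = 5). Every amphetamine mouse was thus above every control mouse, and the amphetamine mice differed widely among themselves. The difference was 13.3 points (SE 3.79), with an adjusted p of 0.922 by limma, and mean coverage was 133 in amphetamine and 90.2 in control mice, with 14 in the least covered control mouse. The island holds 30 CpG sites, of which 10 lie within 50 bp of a cut site, where reads can reach them.

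The island chr15:102981651-102982309, of 659 bp, lies in Hoxc9, a gene of thoracic patterning, with 81.6% of its bases coding. Amphetamine mice ran from 1.18% to 3.01%, with a mean of 1.78% ± 0.737 (SD, n = 5), and control mice from 0% to 1.14%, with a mean of 0.542% ± 0.595 (SD, n = 6). The gap between the groups was narrow and both were low. The difference of 1.24 points (SE 0.414) had an adjusted p of 0.922 at a mean coverage of 605 and 358. The tile around it, chr15:102980001-102985000, was at 3.51% ± 1.05 (SD, n = 5) against 1.16% ± 1.25 (SD, n = 6) and was the one tile past 0.05 without adjustment, with ranges that overlapped. The whole Hoxc9 body stood at 3.97% against 2.74%.

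Other islands with large differences had wide spreads. In the Hoxa3 intron, chr6:52177164-52177666 was at 18.6% ± 17.3 (SD, n = 5) against 4.74% ± 8.71 (SD, n = 6), and chr11:96344090-96344429, in coding and untranslated exon sequence of Hoxb3, at 21% against 11.2% with a mean coverage of only 14.0 and 11.5. Lower means were found at chr15:102936835-102937456 in Hoxc12 (1.53% against 20.0%, with 1 control mouse at 100%), chr11:96332716-96333268 in Hoxb3 (7.69% against 12.7%) and chr15:102927188-102927519 in Hoxc13 (0.866% against 3.78%). Their ranges overlapped, and the adjusted p was 0.922 for each. By control level, the highest islands of the clusters were those in Hoxc12 just named, in Hoxb1 (chr11:96365875-96366265, 14.4% ± 8.82), in Hoxa5 (chr6:52203746-52204843, 6.02% ± 5.33) and in Hoxd4 (chr2:74727334-74727642, 5.44% ± 3.97), with SDs over 6 mice.

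**Figure D5:**
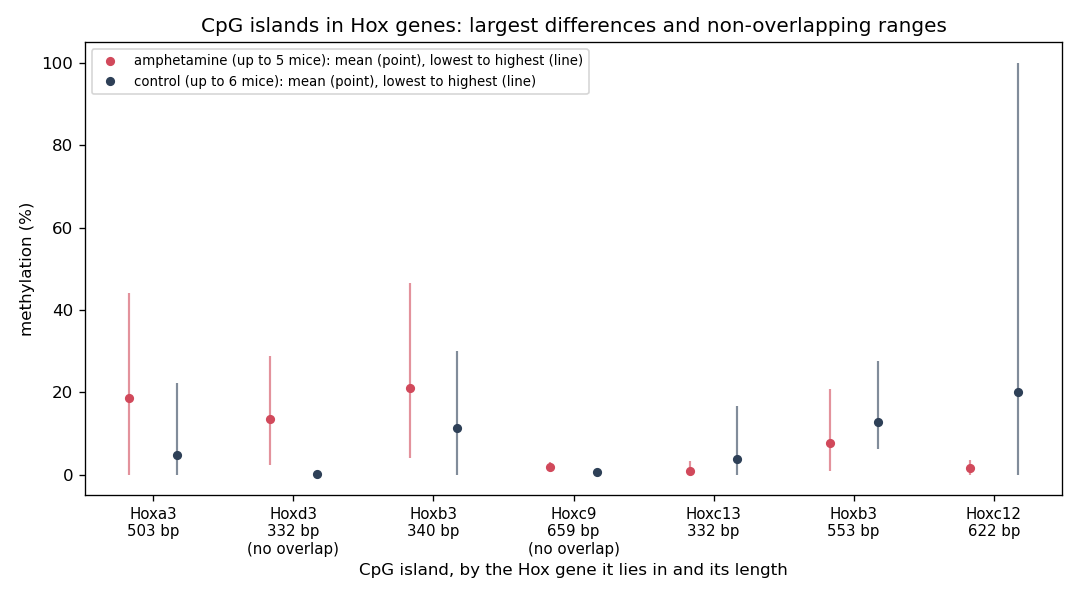
Methylation (y axis, percent) of 7 CpG islands in Hox genes, labelled by gene and length: the 3 largest gains and losses after amphetamine and the islands whose ranges did not overlap. Points are group means and lines run from the lowest to the highest mouse. In the 332 bp Hoxd3 island and the 659 bp Hoxc9 island the lowest amphetamine mouse (2.25% and 1.18%) lies above the highest control mouse (0.741% and 1.14%).

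Tiles differed most in Hoxa3, where chr6:52180001-52185000 was at 40.1% ± 33.7 (SD, n = 5) against 68.2% ± 32.1 (SD, n = 5), with 1 control mouse without reads, and chr6:52170001-52175000 at 18.0% against 23.7%. Around the Hoxb6 start, chr11:96290001-96295000 was at 16.7% against 26.2%. The largest gains were at chr2:74730001-74735000 in Hoxd3, which contains the separated island (12.6% against 4.65%), at chr2:74745001-74750000, also in Hoxd3 (11.4% against 7.14%), and at chr15:102985001-102990000, almost wholly intron of the Hoxc5 gene as annotated (9.85% against 6.54%). For these 6 tiles the adjusted p was 0.967 or higher.

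The second comparison, of the sexes, used the same mice. No Hox region was called: 0 of 36 promoters beside 0.579% of all promoters, 0 of 38 gene bodies beside 0.401%, 0 of 56 islands beside 1.06% and 0 of 75 tiles beside 0.0516%. When the X and Y chromosomes were left out, no region of any class was called, and the Hox clusters are on autosomes. Without adjustment, 3 promoters (8.33%, beside 6.56% of all), 0 gene bodies (beside 6.44%), 2 islands (3.57%, beside 6.33%) and 3 tiles (4.00%, beside 5.46%) passed 0.05, all lower in females. No Hox region separated the sexes, where 1.56% of promoters, 1.04% of gene bodies, 1.90% of islands and 0.674% of tiles did.

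The promoters past 0.05 without adjustment were Hoxa9, a regulator of blood cell progenitors, at 1.10% ± 0.722 (SD, n = 6) in females and 3.87% ± 1.93 (SD, n = 5) in males, Hoxa13 at 0.372% against 2.65%, and Hoxd9 at 2.15% against 5.02%. Their adjusted p-values by limma were 0.393, 0.635 and 0.685. The islands were chr11:96304906-96305224 in Hoxb5 (2.13% in females, 13.3% in males) and chr15:103010738-103010979 in Hoxc6 (3.76% and 15.7%). The tiles were chr6:52175001-52180000 in Hoxa3 (3.33% and 8.14%), chr6:52185001-52190000 in Hoxa3 and Hoxa4 (18.5% and 29.1%) and chr15:102950001-102955000 at Hoxc11 (2.94% and 5.75%). In all of them the ranges of females and males overlapped.

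HoxA leaned toward lower means in females, with 8 of 10 promoters, 7 of 10 gene bodies, 11 of 16 islands and 14 of 20 tiles lower, and a median tile difference of -1.60 points beside 0.711 over all tiles. Neighbouring and overlapping regions share reads, so these counts are not independent. In HoxD 10 of 17 tiles (58.8%) were higher in females, with a median of 0.648 points, near the 55.2% and 0.711 points of all tiles. The largest lower means among gene bodies were Hoxa5 (8.82% in females against 16.5% in males), Hoxa3 (8.80% against 14.5%) and Hoxa4 (6.15% against 9.63%), and the largest higher ones Hoxb6 (8.18% against 3.09%), Hoxb7 (4.11% against 1.63%) and Hoxb2 (3.88% against 1.68%), each with an adjusted p of 0.791 or more.

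For promoters the largest lower means in females were at Hoxb4 (0.529% against 13.8%, with reads in 3 females and 4 males), Hoxa5 (5.11% against 13.7%) and Hoxc12 (3.91% against 12.0%). Higher means were at Hoxb8 (16.7% against 0%, again 1 mouse at 100%), Hoxb6 (31.3% against 23.0%) and Hoxc6 (5.65% against 1.43%). Among islands, those in Hoxc12 (3.64% against 21.2%), Hoxa3 (5.26% against 18.0%) and Hoxc6 were furthest below the male mean, and chr11:96344090-96344429 (21% against 9.33%) and chr11:96341938-96342320 (6.85% against 0%) in Hoxb3 and chr11:96286678-96287449 in Hoxb7 (4.11% against 1.63%) furthest above. Among tiles, chr6:52180001-52185000 (38.1% against 70.1%), chr6:52195001-52200000 (30.5% against 42.8%) and chr6:52165001-52170000 (13.4% against 25.7%), the last mostly outside genes and the others in Hoxa3, were furthest below, and chr11:96290001-96295000 at Hoxb6 (25.1% against 18.0%), chr11:96195001-96200000 at Hoxb13 (7.54% against 3.33%) and chr6:52235001-52240000 in Hoxa10 (3.19% against 0.0560%) furthest above. None of these passed after adjustment.

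The spread between mice followed level and coverage. Over 36 promoters, the SD in control mice had a Spearman rho of 0.590 with their mean and of -0.532 with their mean coverage, and over 75 tiles of 0.737 and -0.574. The mean itself had a rho of -0.408 with the number of CpG sites over the promoters and of -0.424 over the tiles. These are descriptions across regions that share libraries and partly overlap, without a p-value.

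Genes that act with Hox proteins or on the clusters were listed alongside. The Hox cofactors of the Pbx, Meis and Pknox families, which bind DNA together with Hox proteins, had a median promoter level of 5.23% in 9 genes in control mice, with 2 higher and 7 lower after amphetamine. Promoters of 13 Polycomb genes, whose products keep Hox genes silent, had a median of 2.26%, with 5 higher and 8 lower, and those of 5 Trithorax genes, which keep them active, 7.28%, with 2 higher and 3 lower. The 6 ParaHox genes, the sister family that includes Pdx1 and Cdx2, had a median of 4.70%, with 3 higher and 3 lower. No promoter or gene body of these lists passed after adjustment in either comparison. Unadjusted, 1 of 6 ParaHox promoters passed between amphetamine and control mice and 0 in the other lists, beside 4.44% of all promoters. It was Gsx1, at 3.36% ± 0.939 (SD, n = 5) against 1.60% ± 1.37 (SD, n = 6). Between the sexes 1 Polycomb promoter passed unadjusted, beside 6.56% of all promoters. There 1 ParaHox and 1 Trithorax gene body passed too, beside 6.44% of all gene bodies.

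Within the clusters, 12 promoters of noncoding genes were tested, with a median of 3.18% in control mice, 7 higher and 4 lower after amphetamine. The highest were Hoxb5os at 34.5% ± 22.9 (SD, n = 6), Mir10b, a microRNA gene beside Hoxd4, at 25.2% ± 21.9 (SD, n = 6) and Hotair, a long noncoding RNA of HoxC, at 20.0% ± 44.7 (SD, n = 5), a mean and SD that 1 mouse at 100% and the others at 0% give. Their amphetamine means were 41.5%, 32.9% and 1.25%. None passed after adjustment. Of the genes that border the clusters, 8 promoters had a median of 3.98% and 10 gene bodies of 50.8%, beside 4.75% for the Hox gene bodies.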

How the data were processed

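RRBS libraries of 11 P0 mouse pancreata were made by the authors with MspI and TaqI. Per the labels, reads were aligned to mm10 with Bismark, and limma and methylKit were used. As the study's methods state, alignment ran within the NextFlow methylseq pipeline and CpG sites were summarized per region with RnBeads. The authors deposited 8 tables, 1 for each of 4 classes of region in 2 comparisons. Per region and group, the authors gave methylation as a fraction (mean, SD, lowest and highest value over mice with reads), and the text gives it in percent. The coverage signal deposited beside it (mean, lowest and highest) was not normalized. From its size it was taken as a sum of reads over CpG sites, which no source states, and low coverage limits the precision. Values and depth per mouse were not analysed here. The authors' own differences, quotients, p-values, adjusted p-values and ranks were not used.

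Groups came from the treatment and sex labels. For each region a 2-group limma test (limma 3.58.1, R 4.3.3) was rebuilt from group means, SDs and numbers of mice, with the variance moderated along mean methylation, over regions with reads in at least 3 mice per group and mean coverage not below 10 in either. P-values are two-sided and were adjusted by the Benjamini-Hochberg method over all tested regions of a class. In simulated data for the promoters of amphetamine against control (20695 promoters), 86% of 200 promoters shifted by 4 SD were called, with 4 false calls. Smaller shifts were not simulated, so how often the test would call them is not known. The observed difference exceeded the SD between mice at only 4 of the 36 tested Hox promoters. Regions whose group ranges do not overlap were counted. Gene models and sequences were from GENCODE M21 and the GRCm38.p6 genome, and Python 3.11.15 with pandas 2.3.3 was used. The Hox members, gene lists and rules were chosen with earlier results of these data known. Named were, in each cluster, the promoter and gene body of highest and lowest control methylation and the highest island and tile, in each class and comparison the 3 largest increases and decreases, and every region with separated ranges. The alternatives were another variance prior, other filters on coverage, mice and chromosomes, other thresholds, other overlap rules and means weighted by coverage.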

Additional observations from a re-analysis of the deposited data

Results flagged for a closer look

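A group's values can be worked out in full where its mean, lowest and highest value leave 1 mouse at one end and all others at the other, and such groups have 1 mouse far from the rest by Dixon's criterion. Every group of that form meets the criterion by its make-up, so no chance rate can be set beside the flags. In groups where the summary does not fix the values this could not be looked for. Among tested Hox regions the control and the female mice at the Hoxb8 promoter had 1 mouse at 100% and all others at 0%, with a lowest coverage of 3 in the control group. The island chr6:52211662-52211870 in Hoxa3 had 1 mouse at 3.94% and the others at 0% in the control and the male group, chr11:96283990-96284651 in Hoxb8 1 amphetamine mouse at 0.340%, and chr11:96341938-96342320 in Hoxb3 1 control mouse at 27.3%. At chr11:96299100-96299616 in Hoxb6, 1 female was at 8.33% and 1 male at 3.12%, at chr15:102927188-102927519 in Hoxc13 1 male was at 6.00%, and at the tile chr6:52235001-52240000 in Hoxa10 1 amphetamine mouse was at 1.67% and 1 male at 0.280%. The cause of these values was not tested.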

How the results depend on the processing

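No label pairs the mice, so no paired analysis was run. Leaving out each mouse in turn was not run, because the deposited tables hold group summaries only. No Hox region of any class was called in either comparison under another variance prior, without a coverage minimum, at a coverage of at least 30, with values in all mice, on autosomes alone, at an adjusted p under 0.1, with the study's thresholds on fold and difference added, or under the other overlap rules. With an unadjusted p under 0.05, amphetamine against control gave 3 promoters, 1 gene body, 2 islands and 1 tile, and female against male 3 promoters, 2 islands and 3 tiles. The median differences and control levels moved by less than the SD between mice under each filter and weighting tried, although weighting by coverage turned the island difference between treatments from -0.0770 to 0.328 points and took the female against male differences of gene bodies and tiles from -0.0714 and -0.143 to -0.816 and -0.658 points. Leaving out the 1 control mouse at 100% at the Hoxb8 promoter, an alternative chosen after seeing the data, took the median of the HoxB promoters, and that of the Hox promoters without an island, from 11.1% to 7.03%. Coverage sets a limit at thin regions such as the Hoxd11 promoter, with reads in 4 of 5 amphetamine and 5 of 6 control mice, and the Hoxb4 promoter, with reads in 4 and 3, and group summaries cannot tell which mouse carries an extreme value.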
